A study of Mus musculus with 64 samples.

Results

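The 8 genes described here belong to the program that mouse cells use around the first activation of the embryo's own genome. They are Zscan4c, Zscan4d, Zscan4f, Zfp352, Tcstv1, Tcstv3, Dppa2 and Dppa4. They were picked by name, with earlier results of these data known, and all 8 were found among the 23338 genes listed for every sample. RNA was sequenced from 64 mouse samples of the strain C57BL/6 (substrain C57BL/6 J in the study's methods): 12 single eight-cell embryos (6 male, 6 female), 4 lines of embryonic stem (ES) cells (2 male, 2 female), 24 livers of late fetuses taken over 17 days after mating (12 male, 12 female) and 24 livers of adult mice of 15 to 20 weeks (12 male, 12 female). The embryos came from natural matings and were collected over 2 days after them. The ES lines had been derived from eight-cell embryos and grown in 2i medium, which holds an inhibitor of the MAP kinase pathway (PD0325901), an inhibitor of GSK3 (CHIR99021) and the cytokine LIF. Each line was sequenced as 1 sample, the embryos came from 4 litters whose members are not told apart in the sources used here, and the embryo libraries alone were made by an amplified single-cell protocol, while ES cells and livers were prepared with a stranded total RNA kit.

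In the mouse, transcription from the new genome starts at the end of the one-cell stage and becomes strong at the two-cell stage. Zscan4 genes, Zfp352 and Tcstv genes are transcribed in a burst at that stage and fall afterwards. In ES cultures the same genes are on in a small share of cells, called two-cell-like cells, and off in the rest. Zscan4 genes encode DNA-binding proteins with a SCAN domain and zinc fingers that act on telomeres and heterochromatin. Zfp352 encodes a zinc finger protein. Tcstv genes form a family at one cluster and are named for the two-cell stage. Dppa2 and Dppa4 encode a pair of proteins with a SAP domain that bind each other and DNA. They are made in the oocyte, in the early embryo and in all pluripotent cells, and they are needed for ES cells to switch on Dux and, through it, the two-cell genes. A bulk ES library therefore averages rare positive cells with many negative ones. Here, fewer cells that carry a transcript and less transcript per cell cannot be told apart.

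The genes lie at 4 loci of GRCm38, the build that the authors' alignment to mm10 used. Zscan4c (chr7:11005745-11010547, plus strand), Zscan4d (chr7:11161374-11166159, minus strand) and Zscan4f (chr7:11397915-11402318, plus strand) share a cluster on chromosome 7. Zfp352 is on chromosome 4 (chr4:90218820-90225702, plus strand). Tcstv1 (chr13:119893388-119894785, minus strand) and Tcstv3 (chr13:120316878-120318178, plus strand) are on chromosome 13. Dppa4 (chr16:48283733-48294237) and Dppa2 (chr16:48303908-48319723) are neighbours on the plus strand of chromosome 16 with 9670 bases between them.

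How alike the Zscan4 copies are decides what a count of uniquely placed reads can show. The coding sequences of Zscan4c and Zscan4f, each 1518 bases in the GENCODE transcripts, were identical at 99.6% of positions and differed by 6 substitutions. Zscan4d differed from either by 35. The stretch of 60 coding bases with the most differences among the 3 copies, bases 1032 to 1091 of the coding sequence counted from the start codon, is shown to let the copies be compared. Capitals mark the 6 positions in it at which the copies differ, out of 38 in the whole coding sequence.
Zscan4c: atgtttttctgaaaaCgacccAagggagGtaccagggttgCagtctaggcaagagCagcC
Zscan4d: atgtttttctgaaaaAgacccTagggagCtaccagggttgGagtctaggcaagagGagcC
Zscan4f: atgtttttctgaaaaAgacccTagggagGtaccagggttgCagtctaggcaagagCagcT

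Cut into words of 50 bases, 14.5% of the transcript sequence of Zscan4c, 50.4% of Zscan4d and 13.2% of Zscan4f occurred in no other annotated gene. With words of 100 bases the shares were 27.2%, 70.4% and 19.4%. Zscan4c and Zscan4f shared the most words with the pseudogene Zscan4-ps2 and with each other. For Tcstv1 and Tcstv3, whose coding sequences were 93.6% identical, 85.0% and 68.6% of the 50-base words were found in no other gene. The share was 92.9% for Zfp352, 70.9% for Dppa2 and 68.7% for Dppa4, the last 2 sharing words with predicted genes such as Gm9788 and Gm14058. HTSeq leaves out reads that align to several places, which were 18.7% to 25.7% of the counted alignments of an embryo, 26.8% to 30.9% of an ES line, 23.2% to 28.5% of a fetal liver and 32.7% to 61.1% of an adult liver. The reads of single Zscan4 and Tcstv genes are therefore those that fell on the parts that tell the copies apart, and their split between copies is uncertain.

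**Figure D1:**
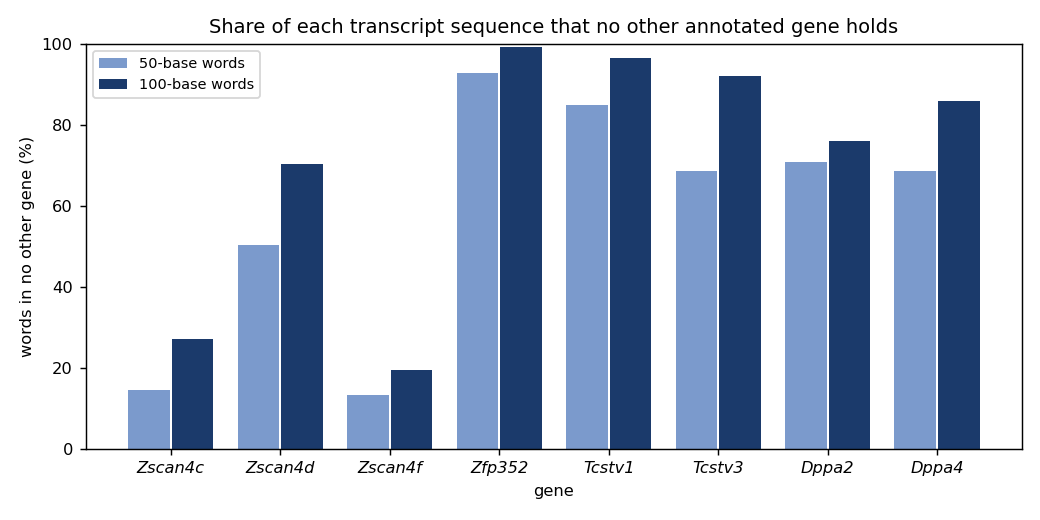
Bars give, for each of the 8 genes, the percent of 50-base (light) and 100-base (dark) words of its annotated transcripts that occur in no other annotated gene. Zscan4c and Zscan4f have the lowest bars, at 14.5% and 13.2% for 50-base words, and Zfp352 has the highest at 92.9%.

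Promoter sequences of RefSeq on GRCm38.p6 were found for 4 of the 8 genes (Zscan4c, Zscan4d, Zscan4f and Zfp352). The 250 bases upstream of the start are printed for Zscan4c and Zfp352, because they show that the 2 families do not share an arrangement of motifs. In Zscan4c (chr7:11005495-11005744, plus strand) capitals mark TGATTCAA, 184 bases before the start, and the TATA box TATAAA, 54 bases before it. In Zfp352 (chr4:90218570-90218819, plus strand) capitals mark TAATCC, the core of sites bound by bicoid-type homeodomain proteins.
Zscan4c: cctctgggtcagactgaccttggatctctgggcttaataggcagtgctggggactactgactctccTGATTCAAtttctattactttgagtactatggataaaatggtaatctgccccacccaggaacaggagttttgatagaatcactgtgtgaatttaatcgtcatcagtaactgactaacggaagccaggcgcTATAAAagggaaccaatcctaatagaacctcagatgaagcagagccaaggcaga
Zfp352: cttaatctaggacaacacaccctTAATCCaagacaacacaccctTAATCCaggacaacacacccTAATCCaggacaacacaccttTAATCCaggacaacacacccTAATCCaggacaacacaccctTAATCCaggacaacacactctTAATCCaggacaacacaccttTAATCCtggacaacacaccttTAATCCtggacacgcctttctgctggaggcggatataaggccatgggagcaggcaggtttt

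Both TGATTCAA and TATAAA stood once in each of the 3 Zscan4 promoters. TGATTCAA, searched on both strands and picked after the sequences had been seen, occurred in 0.581% of the 32851 promoters searched, each from 250 bases before to 50 bases after the start. TATAAA, searched on the sense strand, occurred in 8.32% of them. The Zfp352 promoter held TAATCC 9 times in steps of 20 or 21 bases, between 227 and 61 bases before the start. TAATCC was found on either strand in 7.06% of promoters, and no other promoter held it 9 times. The paired site TGATTNAATCA, which can begin with TGATTCAA and is the core of the sites of Dux-type double homeodomain proteins, was in none of the 4 promoters and in 0.0335% of all. A match is a description of letters and was not tested for binding.

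Between 4659656 and 7725432 reads per eight-cell embryo were assigned to genes. The range was 9857929 to 10386931 in ES lines, 5145371 to 8499603 per fetal liver and 1567583 to 4757610 per adult liver. Levels are CPM, the counts scaled to a common library size, by TMM over all 64 samples. On this scale 3 reads, taken as the least that shows a gene, correspond to 0.339 to 0.596 CPM in an embryo, 0.217 to 0.236 in an ES line, 0.324 to 0.511 in a fetal liver and 0.801 to 2.28 in an adult liver. These limits, and all intervals below, cover counting error only, since the PCR products carried no molecular identifiers. No samples had identical counts. In all 4 stages Xist was higher in every female than in any male sample and Eif2s3y was higher in every male, and in the embryos the study had assigned the gender from those genes. Pluripotency markers (Pou5f1, Nanog, Sox2, Klf4, Esrrb and Tfcp2l1) summed to 241 to 973 CPM in embryos and 2759 to 3549 CPM in ES lines. Their sum in livers was 15 to 37.1 CPM, where hepatocyte markers summed to at least 29676 CPM. Hepatocyte markers summed to 0.269 to 61.0 CPM in embryos and 0.846 to 1.59 CPM in lines. The sums in embryos and lines were 0 to 122 and 8.96 to 26.8 CPM for trophectoderm, 18.7 to 99.7 and 24.3 to 30.5 CPM for germ cells, 0 to 10.9 and 9.74 to 25.6 CPM for leukocytes and 0 to 5.64 and 0.146 to 0.795 CPM for erythroid cells. In the lines the leukocyte sum was nearly all Cd68 (9.74 to 25.6 CPM). The other leukocyte markers Ptprc, Cd79a and Lyz2 had 1, 4 and 0 reads over the 4 lines. Transcripts of the oocyte (6 genes) summed to 68.0 to 160 CPM in embryos and 4.95 to 16.3 CPM in lines. All 6 were called lower in lines in the comparison below, where 27.4% of all genes tested were. Over the 4 lines Oosp1 and Zar1 had no read, and Gdf9, Bmp15 and Nlrp5 had 15, 8 and 5. These passed the filter on low counts mainly through embryos, so nothing is read from that count.

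Across the 4 stages the 8 genes fell into a pair with high levels and a set of 6 with low ones. Dppa2 and Dppa4 had at least 305 CPM in every embryo, 45 to 97.7 CPM in every ES line and no or few reads in liver. Zscan4c, Zscan4d, Zscan4f, Zfp352, Tcstv1 and Tcstv3 together had 600 reads in the 12 embryos, 78 in the 4 ES lines, 2 in the 24 fetal livers and 0 in the 24 adult livers. All 12 embryos and all 4 lines had at least 3 reads of the 6 genes together, yet 5 of the 6 genes were each at 0 in at least 6 embryos.

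**Figure D2:**
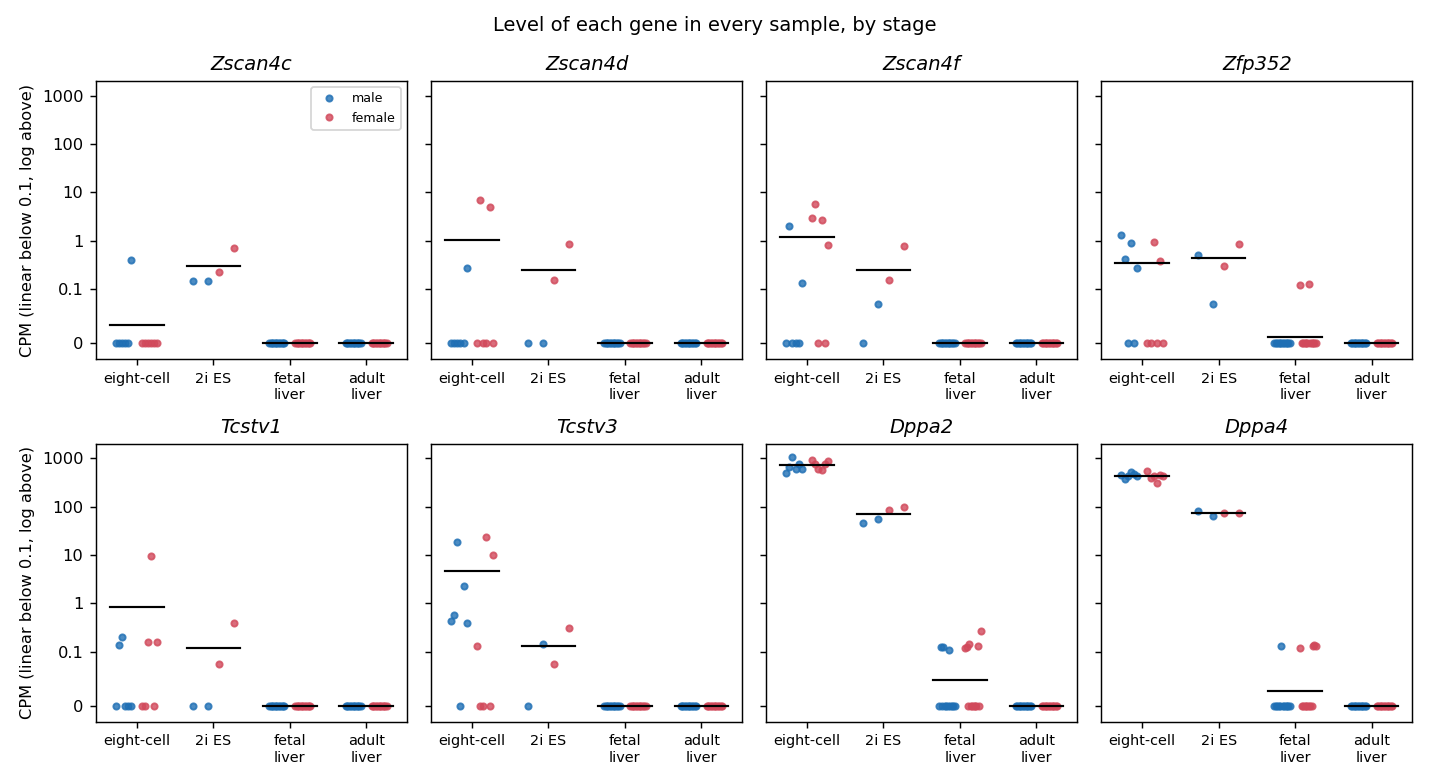
Each panel shows 1 gene, each point 1 sample (blue male, red female) by stage, and the black line the mean of the stage. The vertical axis is CPM, linear below 0.1 and logarithmic above. Dppa2 and Dppa4 step down from embryos (means 728 and 432 CPM) to ES lines (70.7 and 73.2 CPM) to fetal liver, and all 8 genes are at 0 in all 24 adult livers.

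Dppa2 had 3421 to 6832 reads per embryo. Its level was 499.7 CPM in the lowest embryo, 714 CPM at the median and 1089 CPM in the highest, with a mean of 728 ± 171 CPM (SD, n = 12). The 4 ES lines had 45, 55.9, 84.4 and 97.7 CPM (lines 1 to 4, the first 2 male), a mean of 70.7 ± 24.5 CPM (SD, n = 4). The lowest embryo was thus far above the highest line, and the groups did not overlap. Dppa4 had 305 CPM in the lowest embryo, 436 CPM at the median and 537 CPM in the highest, with a mean of 432 ± 60.8 CPM (SD, n = 12). In the lines it had 80.4, 63.2, 75.7 and 73.6 CPM, a mean of 73.2 ± 7.25 CPM (SD, n = 4). Dppa4 did not overlap either, and its 4 lines lay closer together than those of Dppa2.

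ES lines were compared with embryos by edgeR's quasi-likelihood test with gender as a covariate, and a gene was called where its p-value, adjusted after Benjamini and Hochberg, was under 0.1 and its log2 fold change above 0.5 in size. In this comparison 65% of the 12478 genes tested were called, 27.4% with lower and 37.6% with higher levels in ES cells. Of the 8 genes, 4 passed the filter on low counts and 3 of these were called, all lower in ES cells. Zscan4f and Tcstv3 passed it through reads in embryos, so nothing is read from that count. Dppa2 was lower by a log2 (ES/embryo) of -3.55 (standard error 0.251, edgeR adjusted p = 3.44e-09). Dppa4 was lower by a log2 of -2.72 (standard error 0.155, edgeR adjusted p = 2.38e-10). The median log2 of all genes tested was 0.44, so both fell further against the bulk of genes than these values say. Library totals or DESeq2 size factors in place of TMM moved that median to 0.83 and 0.79 and the 2 genes to -3.16 and -3.21 (Dppa2) and -2.33 and -2.37 (Dppa4). Non-overlapping groups with the lines below the embryos were found for 15.4% of the genes tested. Stage and library protocol split these samples in the same way and cannot be told apart, and oocyte transcripts, which moved in the same direction, were not tested for their part in the result.

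Because Dppa2 and Dppa4 act as a pair, their balance was also read within each sample, as the log2 ratio of their CPM per kb of exon (2447 bases for Dppa2, 1662 for Dppa4). This measure was chosen after the levels had been seen. It ran from -0.38 to 0.80 in the embryos with a median of 0.21. In ES lines 1 to 4 it was -1.40, -0.74, -0.40 and -0.15, and Dppa4 was the higher of the pair in each. The mean was 0.84 lower on the log2 scale in lines (-0.67 ± 0.54, SD, n = 4) than in embryos (0.17 ± 0.34, SD, n = 12; two-sided exact permutation test, p = 0.0022). The groups overlapped, since line 4 and 2 of the male embryos (1 and 4) lay between -0.15 and -0.38. With each sample left out in turn the difference stayed between -1.02 and -0.60, with exact permutation p-values up to 0.0154. Male and female embryos differed in it by -0.19 (two-sided exact permutation test, p = 0.366). The ratio also depends on which part of a transcript each protocol covers, which was not tested.

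**Figure D3:**
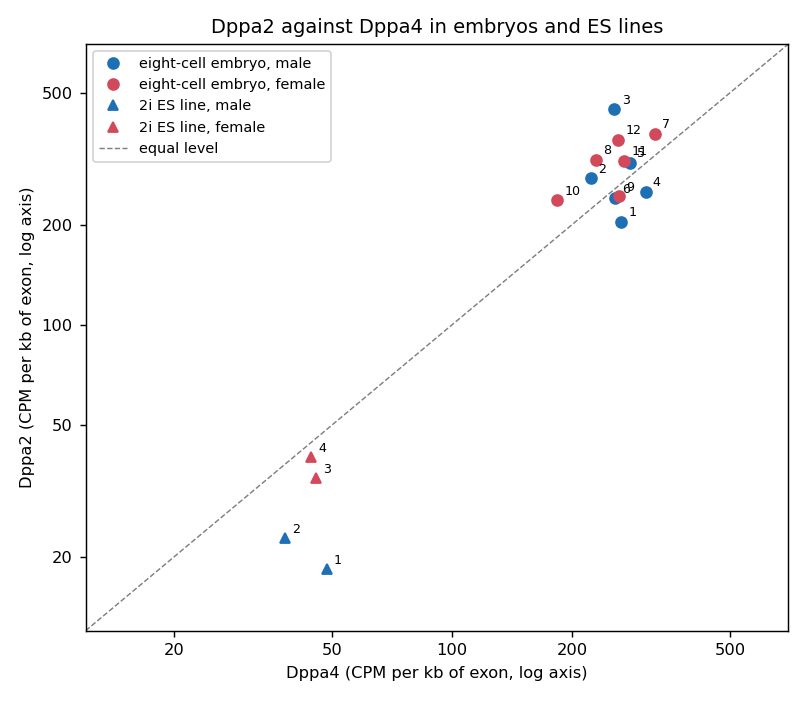
Level of Dppa2 against Dppa4 in CPM per kb of exon, both axes logarithmic, for the 12 embryos (circles) and 4 ES lines (triangles), with the sample number beside each point and a dashed line of equal levels. The embryos scatter around the line, and all 4 lines lie below it, the male lines (1 and 2) furthest, with log2 ratios of -1.40 and -0.74.

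Among single embryos, Dppa4 varied less than most genes of its abundance and Dppa2 about as much as they did. The coefficient of variation of Dppa4 was 0.141 and that of Dppa2 was 0.235, where counting alone would give 0.0183 and 0.0143. Within gender, edgeR's estimate of the biological coefficient of variation was 0.218 for Dppa4 and 0.254 for Dppa2, against trend values of 0.275 and 0.269 for genes of their abundance. Of the 345 genes within 0.5 log2 units of the abundance of Dppa4, 9.86% varied less than it did. For Dppa2, 53.4% of 163 such genes varied less. Over the 12 embryos the log2 CPM of the 2 genes had a Spearman correlation of 0.15 and a Pearson correlation of 0.26, a description over 12 points that share library scaling.

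In male against female embryos, 0.264% of 9087 genes were called. The mean level of Dppa2 was 703 ± 207 CPM (SD, n = 6) among the male and 752 ± 141 CPM (SD, n = 6) among the female embryos, and the log2 (male/female) was -0.09 with a standard error of 0.190 (edgeR adjusted p = 1.00). For Dppa4 the means were 440 ± 45.5 and 424 ± 76.9 CPM (SD, n = 6 each), and the log2 was 0.05 with a standard error of 0.157 (edgeR adjusted p = 1.00). Neither difference exceeded the spread between embryos, and the other 6 genes had too few reads to pass the filter. DESeq2 called neither gene. Without the filter edgeR called none of the 8, and Zscan4d alone had an unadjusted p under 0.05 (0.0378, edgeR adjusted p = 0.327). Exact permutation tests of 6 against 6 embryos gave unadjusted two-sided p-values from 0.106 (Zscan4f) to 1. The smallest p-value that this design allows is 0.0022.

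In male against female ES lines, 9.5% of 12678 genes were called, 6.08% with the females higher. Dppa2 was among the latter. Its mean was 50.4 ± 7.69 CPM (SD, n = 2) for the male and 91.0 ± 9.35 CPM (SD, n = 2) for the female lines. The log2 (male/female) was -0.85 with a standard error of 0.140 (edgeR adjusted p = 0.0334). Both female lines were above both male lines, an arrangement that 28.9% of the genes tested also had. Without either female line the call was lost (edgeR adjusted p = 0.275 without line 3 and 0.402 without line 4), and no gene at all was then called. With 2 lines a gender, a difference between genders and a difference between lines cannot be told apart. Dppa4, 9670 bases away, had means of 71.8 ± 12.1 and 74.6 ± 1.45 CPM (SD, n = 2 each) in these lines, and its log2 was -0.05 with a standard error of 0.138 (edgeR adjusted p = 0.860). Whether the gender difference itself differed between lines and embryos was tested as an interaction. It was -0.77 for Dppa2 (standard error 0.364, edgeR unadjusted p = 0.0506, adjusted p = 1.00), and none of the 5 genes that could be tested was called by edgeR or by DESeq2 (which gave Dppa2 an unadjusted p of 0.0388), where 0.0296% of 13511 genes were.

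In fetal liver, Dppa2 had 9 reads in 8 of the 24 livers and Dppa4 had 5 reads in 5 of them, never more than 2 in one liver. Pooled over the stage this was 0.050 CPM for Dppa2 (exact Poisson 95% interval 0.0229 to 0.0949) and 0.0278 CPM for Dppa4 (0.0090 to 0.0648). Both genes were called lower than in ES lines, as were 36.2% of the 14333 genes tested (76.7% were called in all). With so few reads in liver, both passed the filter through the ES lines, so nothing is read from that count. The log2 (fetal liver/ES) was -10.21 for Dppa2 (standard error 0.175, edgeR adjusted p = 7.38e-31) and -10.84 for Dppa4 (standard error 0.168, edgeR adjusted p = 4.88e-32). These fold changes rest on few fetal reads and depend on the method. Other fits gave -9.52 to -10.4 for Dppa2 and -9.86 to -12.54 for Dppa4. Neither group overlapped the other, which held with liver lower for 30.2% of genes. In adult liver no read of either gene was counted in any of the 24 samples. Set against 3 reads over all adult livers (0.0562 CPM), Dppa2 was at least 1245-fold and Dppa4 at least 1302-fold lower than in ES lines. The adult libraries were the shallowest, so a level like that of fetal liver was not detectable there, and neither gene passed the filter in the comparison of the livers, in which 67% of 12875 genes were called, 47.3% of these with adult liver higher (25.4% when libraries were scaled by their totals). Without the filter Dppa2 was called lower in adult liver (edgeR adjusted p = 0.0511), where 61.3% of 19519 genes were called in either direction. That call rests on its 9 fetal reads, and the fitted fold change depends on the prior count. None of the 8 genes could be tested between male and female livers, where 4.64% of 12930 genes (fetal) and 9.49% of 10372 genes (adult) were called.

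The 6 low genes were present in single embryos in a patchy way. Zscan4f had reads in 6 embryos, with 14 in embryo 2, 1 in embryo 6, 22 in embryo 7, 37 in embryo 8, 16 in embryo 10 and 5 in embryo 12. Zscan4d had reads in 3 embryos, with 2 in embryo 6, 45 in embryo 8 and 40 in embryo 11. Zscan4c had 3 reads, all in embryo 6. Among these 3 copies, as counted, the same one was thus not the leading one in each embryo. Embryo 8 had reads of Zscan4d and Zscan4f, embryo 11 of Zscan4d only, and embryos 2, 7, 10 and 12 of Zscan4f only. Zscan4a, a further copy that shares words with these 3, had 54 reads in 3 embryos and 31 over the 4 lines. The split of reads between copies is uncertain, so no copy can be said to be the one expressed in an embryo. Summed over the 3 copies, 7 of the 12 embryos had at least 3 reads and 5 had none, and embryo 8 with 82 of the 185 reads reached 12.8 CPM. The mean of the sum was 2.25 ± 3.68 CPM (SD, n = 12).

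Zfp352, whose sequence is nearly unique, had 31 reads in the 12 embryos. It had 9 reads in embryo 1, 8 in embryo 4, 6 in embryo 9, 3 each in embryos 2 and 11 and 2 in embryo 6, and none in the other 6. Its highest level was 1.31 CPM and its mean 0.353 ± 0.462 CPM (SD, n = 12). Since 3 reads correspond to 0.339 CPM or more in an embryo, an embryo at 0 may hold a level close to that mean. Zfp352 and Zscan4f had reads together in 2 embryos (2 and 6).

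Per kb of exon, Tcstv3 had the highest mean level of the 6 low genes in embryos, 6.02 CPM per kb against 0.0147 to 0.610 for the others. This scale uses the whole exon length, although only uniquely placed reads were counted. The unique share of 50-base words was 68.6% for Tcstv3 and 13.2% for Zscan4f, so the gap to the Zscan4 copies is overstated to an unknown degree. Whether scaling by length suits the amplified embryo libraries was not tested. It had 138 reads in embryo 10, 96 in embryo 3, 63 in embryo 12 and 15 in embryo 5, which are 23.2, 19.1, 10.1 and 2.31 CPM. Another 4 embryos had 1 to 4 reads and the remaining 4 had none. The mean of 4.69 ± 8.24 CPM (SD, n = 12) therefore rested on 3 embryos, and the median was 0.420 CPM. Tcstv1 had 57 reads in embryo 10 and 1 read in each of 4 others. Embryo 10 was the highest for both genes and held 195 of their 384 reads. The coefficient of variation over the 12 embryos was 1.31 for Zfp352 and 1.76 for Tcstv3.

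**Figure D4:**
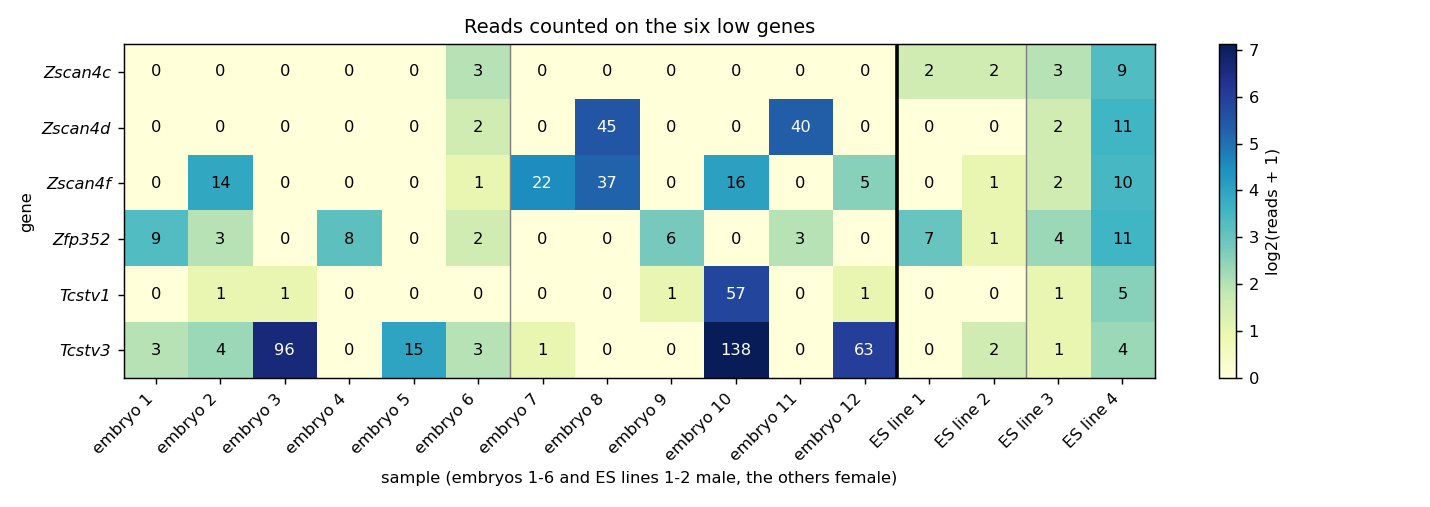
Reads of the 6 low genes (rows) in each of the 12 embryos and 4 ES lines (columns), printed in each cell and shaded by log2(reads + 1). Embryos 1 to 6 and lines 1 and 2 are male. Different embryos are dark in different rows, such as embryo 8 for Zscan4d (45 reads) and embryo 10 for Tcstv3 (138 reads), while line 4 has the highest count of the 4 lines in every row.

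In ES lines the 6 genes were found in low numbers and mostly in 1 line. The reads of lines 1 to 4 were 2, 2, 3 and 9 for Zscan4c, 0, 0, 2 and 11 for Zscan4d, 0, 1, 2 and 10 for Zscan4f and 7, 1, 4 and 11 for Zfp352. For Tcstv1 they were 0, 0, 1 and 5, and for Tcstv3 they were 0, 2, 1 and 4. Line 4, a female line, was highest for 6 of 6 genes and held 50 of the 78 reads. This is 64.1%, against its 24.3% of all reads on genes. Line 4 was singled out after the counts had been seen. Its reads come from 1 library and partly from copies that share sequence, so these shares are a description and no test. Among the 1930 genes with as few reads over the lines (6 to 23), 19.9% had their highest count in line 4. Line 3, the other female line, had 13 reads of the 6 genes, and the male lines had 9 and 6. Line 3 was thus closer to the male lines than to line 4. In the comparison of male and female lines without a filter on low counts, none of the 6 was called by edgeR, and 2 of them, Zscan4d and Zscan4f, had unadjusted p-values under 0.05. Their log2 (male/female) were all negative, the smallest in size being -0.98 for Zfp352 (edgeR adjusted p = 0.625). The largest was fitted for Zscan4d (edgeR adjusted p = 0.176). Both male lines had 0 reads of Zscan4d, so its fitted fold change depends on the prior count and is not given. Dppa2 was also highest in line 4, and Dppa4 was not.

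Between ES lines and embryos, Tcstv3 was called lower in ES cells, with a log2 of -5.19 (standard error 2.33, edgeR adjusted p = 0.0638). Tcstv3 had 7 reads over the lines and passed the filter through embryos, so the filter largely fixed the direction and nothing is read from it. The call was also a weak one. It was lost without line 1, 2 or 3 (edgeR adjusted p = 0.118 to 0.139), Tcstv3 no longer passed the filter without embryo 3, 5, 10 or 12, and an exact permutation test of log2(CPM + 0.5) gave p = 0.247, unadjusted. Over alternatives other than leaving out samples, its adjusted p from edgeR, DESeq2 or limma ran from 0.0110 to 0.0774. Zscan4f had 1.2 ± 1.83 CPM (SD, n = 12) in embryos and 0.253 ± 0.361 CPM (SD, n = 4) in lines and was not called (log2 -2.54, standard error 1.68, edgeR adjusted p = 0.202). The 3 Zscan4 copies summed as 1 gene gave a log2 of -1.54 (standard error 1.47, edgeR adjusted p = 0.381), and Tcstv1 and Tcstv3 summed gave -4.75 (edgeR adjusted p = 0.0756).

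Zscan4c ran the other way. It had reads in 4 of 4 lines and in 1 of 12 embryos, a pooled level of 0.300 CPM against 0.0365 CPM, a ratio of 8.21 with a counting interval of 2.35 to 44.0. It did not pass the filter. Without the filter it was called higher in ES cells, with a log2 of 3.05 (standard error 1.10, edgeR adjusted p = 0.0289), where 60.6% of 18255 genes were called in either direction. An exact permutation test gave an unadjusted p of 0.00824. The split of reads between Zscan4 copies is uncertain, and the summed copies had the opposite sign and were not called. Stage and library protocol cannot be told apart here either. Only line 4, at 0.707 CPM, was above what 3 reads show in every embryo. The other lines, at 0.144 to 0.231 CPM, were below the level that 3 reads show in any embryo, so for them a difference from the embryos was not detectable at this depth. Zscan4d (0.254 ± 0.413 CPM in lines, SD, n = 4), Zfp352 (0.438 ± 0.335 CPM, SD, n = 4) and Tcstv1 (0.117 ± 0.187 CPM, SD, n = 4) were not called with or without the filter. The ranges of lines and embryos overlapped for all 6 low genes.

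In fetal liver only Zfp352 among the 6 had any read, 1 in each of 2 livers, and the others were at 0, which allows up to 0.0167 CPM over the 24 livers. In adult liver all 6 were at 0, which allows up to 0.0562 CPM. The Tcstv3 level pooled over all embryos, 3.93 CPM, was thus at least 236-fold above fetal liver and at least 70.0-fold above adult liver. That level rested on few embryos, the median embryo being at 0.420 CPM, so the bound does not hold for each embryo. Embryos and livers were also prepared by different protocols. Without the filter, edgeR called all 6 lower in fetal liver than in ES lines, with adjusted p-values from 1.05e-09 (Zfp352) to 0.00357 (Tcstv1). Of 19886 genes, 69.6% were called in either direction. With so few fetal reads these 6 genes could be called only lower, and line 4 held 50 of their 78 reads in ES lines. Nothing is therefore read from that count. The fitted fold changes of genes at 0 depend on the prior count and are not given.

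To set the 8 genes beside their program, 36 other genes transcribed in two-cell embryos or two-cell-like cells were counted, out of 47 symbols on a list. In the comparison of ES lines with embryos 14 of them passed the filter, 12 were called lower in ES cells (27.4% of all genes tested were), 0 higher (37.6% of all genes) and 2 were not called. None of these 14 exceeded 2.04 CPM in any line, so that they passed mainly through their levels in embryos and the filter largely fixed the direction of the count. The other 22 could not be tested, among them Zscan4e and Tdpoz3, which had 3 and 2 reads in the lines and 0 in embryos. Sp110, a nuclear body protein gene, had 601 to 1234 CPM in embryos and 0.0722 to 0.393 CPM in lines (log2 -12.16, standard error 0.415, edgeR adjusted p = 7.52e-13). It had 12 reads over the 4 lines and was also found in liver (means of 13.1 CPM fetal and 5.07 CPM adult). The next genes were named after their values had been seen. Ubtfl1 had 18.5 to 106 CPM in embryos and at most 0.154 CPM in a line, Tdpoz2 had 3.06 to 115 CPM and at most 0.0786 CPM, and Gm16367 and D5Ertd577e, at means of 25.0 and 36.3 CPM in embryos, had no read in any line. These were at least 451-fold and 643-fold lower in lines.

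**Figure D5:**
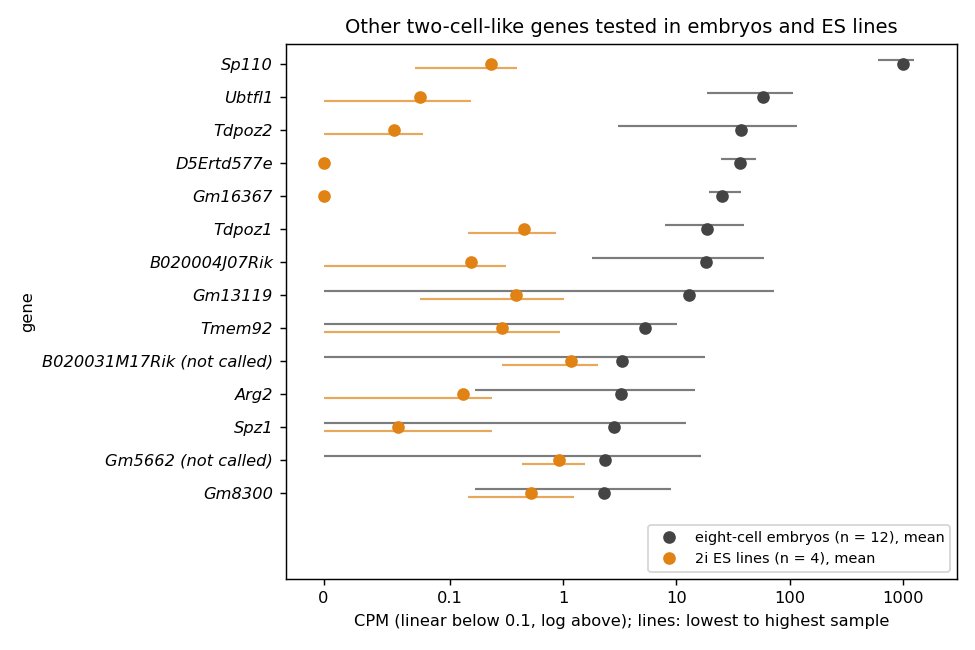
The 14 other two-cell-like genes that could be tested, ordered by their mean level in embryos. Dots give the mean CPM of 12 eight-cell embryos (grey) and 4 ES lines (orange), lines the lowest to highest sample, on an axis that is linear below 0.1 CPM and logarithmic above. Of the genes with reads in the lines, Sp110 has the widest gap, at 984 and 0.230 CPM. The ranges of B020031M17Rik and Gm5662, the 2 genes that were not called, overlap between embryos and lines, as do those of some genes that were called.

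In ES lines this list was also uneven. Of its 26 genes with reads in the lines, 18 had their highest count in line 4. Leaving out Sp110 and Arg2, which are also expressed in other tissues, lines 1 to 4 had 1.95, 4.0, 5.61 and 13.4 CPM of the list in all. The 12 embryos had 170 to 351 CPM on the same measure. Dub1 stayed in the sum, although its means in fetal liver (0.238 CPM) and lines (0.230 CPM) were alike. No gene of the list was called between male and female lines (2 tested) or between male and female embryos (11 tested). Of all genes tested, 9.5% and 0.264% were called in these comparisons, so nothing is read from the absence of calls.

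Genes known to switch the program on were counted as a list of 17 symbols, of which 16 were found. Dux, the double homeodomain factor that activates Zscan4 and other two-cell genes, had 7 reads in 2 of 12 embryos and 5 reads over the 4 lines. It was at 0 in liver. Dppa3, a maternal chromatin protein gene, had 1570 to 3390 CPM in embryos and 34.5 to 105 CPM in lines (log2 -5.61, standard error 0.339, edgeR adjusted p = 5.53e-10). Obox6, an oocyte-specific homeobox gene, had 732 to 2179 CPM in embryos and 6.84 to 41.4 CPM in lines (log2 -6.02, standard error 0.409, edgeR adjusted p = 2.20e-09). Of the 13 activators tested, 8 were called lower in ES cells (27.4% of all genes tested were) and 3 higher (37.6% of all genes), such as the histone demethylase gene Kdm5b (204 and 614 CPM, means of embryos and lines), and 2 were not called. Smarca5, a chromatin remodeller gene, had 438 and 577.3 CPM and was one of the latter (edgeR adjusted p = 0.183). Obox1, Obox2 and Obox5 are among the 8 and had no read in any line, so they passed the filter through the embryos.

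Genes known to hold the program down in ES cells were counted as a list of 25, all of which could be tested. In ES lines 10 were called higher than in embryos, where 37.6% of all genes tested were, 4 were called lower, where 27.4% were, and 11 were not called. The share called higher was near that of all genes. The median log2 was 0.20 against 0.44 for all genes. Uhrf1 and Dnmt1, which maintain DNA methylation, rose from 10.4 to 538 CPM and from 32.5 to 390 CPM (log2 5.57, standard error 0.386, edgeR adjusted p = 2.72e-09, and log2 3.498, standard error 0.302, edgeR adjusted p = 3.94e-08). Rif1, a repressor of Zscan4 in ES cells, rose from 342 to 1043 CPM (log2 1.48, standard error 0.238, edgeR adjusted p = 5.19e-05). Ncl, the nucleolin gene, fell from 828 to 485 CPM (log2 -0.93, standard error 0.183, edgeR adjusted p = 0.000372). Mga, which encodes a subunit of a Polycomb complex, rose from 82.0 to 573 CPM (log2 2.65), and the histone deacetylase gene Hdac1 fell from 474 to 212 CPM (log2 -1.30). Trim28, the corepressor of zinc finger proteins, was at 887 and 1130 CPM and was not called (edgeR adjusted p = 0.243). Against ES lines, 20 of the 25 were called lower in fetal liver, where 36.2% of all genes tested were, 2 were called higher and 3 were not called.

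The genes whose levels over the 12 embryos were most like those of the 8 genes were ranked by Spearman correlation of log2(CPM + 0.5) among the 8071 genes that averaged 5 CPM or more and had reads in at least 6 embryos. For the summed Zscan4 copies they were Arap1 (0.94), Ccnh (0.91), Scaf4 (0.85), Atp5a1 (0.84) and Zfp646 (0.83). For Zfp352 they were Tysnd1 (0.91), AW209491 (0.89), Mrpl24 (0.88), Ubac1 (0.88) and Lrrc28 (0.87). For the mean of Dppa2 and Dppa4 they were Ipo5 and Metap2 (both 0.93), Strn3 (0.90), Krr1 (0.89) and Dnaja2 (0.88). None of these 15 is on the lists above. The ranking is a description over 12 embryos, which share amplification and scaling, and the Zscan4 and Zfp352 ranks rest on few reads. Among the 8 genes themselves, the closest pair was Tcstv1 with Tcstv3 (Spearman 0.65, Pearson 0.64), and the most opposed were Tcstv1 with Dppa4 (Spearman -0.62) and Zfp352 with Dppa2 (Spearman -0.62).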

How the data were processed

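Libraries of 12 eight-cell embryos, 4 2i ES lines, 24 fetal livers and 24 adult livers were used. The deposited values were raw read counts per gene. The authors aligned reads to mm10 with TopHat2 2.0.4 and Bowtie2 2.1.0, used SAMtools 0.1.18, removed duplicates with Picard and assigned reads to genes with HTSeq. Whether HTSeq used strand is not given in the sources used here, so reads of a gene and of a partner on the other strand cannot be told apart. The rows that name no gene were left out; reads outside genes were 6.93% to 37.6% and alignments that were not unique 18.7% to 61.1% of a library. Removing duplicates without molecular identifiers can lower the counts of strongly expressed genes.

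CPM were computed with TMM factors over all 64 samples (edgeR 4.0.16). Each comparison was fitted on the samples of its stages with edgeR's quasi-likelihood test (TMM, filterByExpr, robust fit) with gender or stage as covariate where both were present, in R 4.3.3, and p-values were adjusted over all genes tested. The thresholds, adjusted p under 0.1 and absolute log2 above 0.5, are those of the study. The test was tested on simulated counts. DESeq2 1.42.0, limma 3.58.1, other scalings, no filter, leaving out samples and a replicate block were alternatives. Exact permutation tests used log2(CPM + 0.5) in scipy 1.17.1. Sequences and positions came from GENCODE and RefSeq tables of GRCm38. Words of 50 and 100 bases were counted over GENCODE transcripts, since the read length is not given in the sources used here.

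The 8 genes and all lists were chosen with earlier results of these data known. Beside the 8 genes, the rule named 12 list genes with the highest mean CPM (Dppa3, Obox6, Sp110, Trim28, Rif1, Ncl, Kdm5b, Smarca5, Mga, Uhrf1, Hdac1 and Dnmt1) and the 5 genes most like each of 3 patterns over embryos. Other list genes that are named were chosen after their values were seen. Which samples share a litter is not given in the sources used here, so p-values measure the spread between these samples.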

Additional observations from a re-analysis of the deposited data

Results flagged for a closer look

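In groups of 4 to 10 samples, the gap of the highest or lowest sample to its neighbour was set against the whole range of the group (Dixon's ratio). Of 23 groups with reads, 6 had a sample past the 95% critical value, where chance gives about 1 in 20 groups. All 6 were low genes, and many of their values were 0, for which the ratio is easily exceeded. Zscan4c had 3 reads (0.403 CPM) in male embryo 6 and none in the other 5 male embryos, a ratio of 1. In the ES lines it had 9 reads in line 4 (0.707 CPM), against 0.231 CPM in the next line, a ratio of 0.847. Zscan4d had 2 reads (0.268 CPM) in male embryo 6 and none in the other 5, a ratio of 1. Zscan4f had 14 reads (1.97 CPM) in male embryo 2, against 0.134 CPM in the next male embryo, a ratio of 0.932. Tcstv1 had 57 reads (9.58 CPM) in female embryo 10, against 0.161 CPM in the next, a ratio of 0.983. Tcstv3 had 96 reads (19.1 CPM) in male embryo 3, against 2.31 CPM in the next, a ratio of 0.879. What set these samples apart was not tested.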

How the results depend on the processing

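Of 385 recomputed results, 373 kept their side of the threshold or, for counts of called genes, stayed within 1.5 times. Another 7 kept the direction and lost the call, 5 counts moved and 0 called results reversed. A change of sign where neither fit was called was counted as kept. One case was Dppa4 between male and female embryos (log2 -0.03 to 0.12 with 1 embryo left out). Fits in which a gene did not pass the filter were not counted for it. The lost calls were those of Tcstv3 against embryos (without line 1, 2 or 3, at an adjusted p under 0.05, and by the exact permutation test) and of Dppa2 between male and female lines (without line 3 or 4). Without the filter on low counts, 8 of the 8 genes were called lower in fetal liver than in ES lines, where 69.6% of all genes were called in either direction. Between adult and fetal liver 1 was called lower in adult (Dppa2, edgeR adjusted p = 0.0511, on 9 fetal reads and no adult read), where 61.3% were called in either direction. Leaving out 1 line moved the count between male and female lines between 0 and 2, the second gene being Zfp352 without line 1 (log2 -2.85, edgeR adjusted p = 0.0996).

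Counts over all genes that moved by more than 1.5 times were 1205 between male and female lines (2606 without line 1, 3070 without line 2, 0 without line 3 or 4), 24 between male and female embryos (64 by DESeq2, 13 without embryo 7, 15 without embryo 12), 600 in fetal liver (1057 without the filter), 984 in adult liver (1518 without the filter) and 4 for the interaction (16 by DESeq2, 0 to 5 with a sample left out). With library totals or DESeq2 size factors, 20% of the 5 genes called for the interaction were higher, against 0 of 4. The cause was not tested.

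Same-numbered samples deviated together little (correlations of -0.0271 to 0.0504 for embryos and lines, -0.0333 to 0.0197 for lines and fetal livers, -0.0977 to 0.19 for livers). Of the 24 pairs of livers, 7 exceeded 0.1. Such correlations cannot show that samples are unpaired, and the main fits used no pairing. With a replicate block the counts of called genes among the 8 were 2, 2 and 0, with Dppa2 at -3.39 and Dppa4 at -2.61 against embryos, and Tcstv3 was not tested. Counts of a few reads limit the 6 low genes: in an embryo, levels under 0.339 to 0.596 CPM were not detectable.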
